A study of Mus musculus with 17 samples.

Results

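Distal regions open only in germinal center B cells (GCB) were examined in ATAC-seq data, in which a transposase cuts open chromatin so that reads pile up where chromatin is accessible. A region belonged to this set if it carried no promoter annotation, did not lie on chrX, chrY or chrM, reached a mean of at least 5 RPPM in the Dnmt3-sufficient (C) GCB libraries, and had there at least 4 times the mean of both C naive B cells (nB) and C bone marrow plasma cells (BMPC). RPPM are the reads in a region per 1000000 reads in all regions of the library. That total includes 2 regions on chrM. They took 7.43% to 10.1% of it in GCB libraries, 3.10% to 4.59% in nB and 2.56% to 3.12% in BMPC. Of 50648 distal regions 1691 met these limits, which is 3.34% of distal regions and 2.56% of the 66177 regions in the table. Because C accessibility chose them, the C values below describe the choice, and the comparisons between cell types were made in the Dnmt3-deficient (KO) libraries, which the rule did not use.

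All mice were of mixed B6;129S4 background, 8 to 12 weeks old when experiments began, and carried Dnmt3afl/fl Dnmt3bfl/fl alleles. KO mice also carried a Cre active in B lineage cells, which deleted both de novo DNA methyltransferases, and C littermates carried no Cre. Cre itself and the deletion therefore cannot be told apart. The nB (B220+ Fas- GL7-) were sorted from lymph nodes of naive mice, and GCB (B220+ Fas+ GL7+ PE+) from lymph nodes and BMPC (CD138+) from bone marrow 30 days after immunization with phycoerythrin (PE). For GCB, cells of 2 mice were pooled per library. Dnmt3-sufficient mice gave 3 nB, 2 GCB and 3 BMPC libraries and Dnmt3-deficient mice 2, 4 and 2, from 3000 to 5000 cells each. All nB libraries were male and all BMPC libraries female, while GCB held a female pool F2 and a male pool M1 in C and the female pools F1, F2 and F3 and a male pool M1 in KO. Reads in regions numbered 4104875 to 6079018 in nB, 907959 to 2280954 in GCB and 5357687 to 8232313 in BMPC, so that GCB values rest on the fewest reads. A count of 3 reads, taken as the floor, was worth 0.364 RPPM at the greatest depth. It was worth 3.30 RPPM at the lowest, in KO GCB pool F1, in which 146 of the 1691 regions (8.63%) had at most 3 reads. These floors cover counting error only.

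The germinal center is the structure in lymph nodes where B cells that have met antigen divide, mutate their antibody genes and compete for T cell help. Its program rests on the repressor BCL6 and is left when cells become plasma cells. Distal accessible regions include enhancers, stretches of DNA where transcription factors bind and act on genes that may lie far away. The octamer, with the letters ATGCAAAT, is a known binding sequence of the factors Oct-1 and Oct-2, which B cells use together with the coactivator OBF-1. The annotation names the nearest gene, and a nearby region is not shown here to act on that gene.

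The first 4 sequences carry the sequence features that the results turn on. Each is the central 200 bases of a region, on the plus strand of mm9, taken from the NCBIM37 reference. Capitals mark every match to the 14 motifs searched on both strands. The stretch near Bcl6 and the one in an intron of Ccdc175 hold an octamer, that in Tnfrsf8 holds 3 octamers inside copies of a longer repeat, and that in Cd86 holds the IRF letters GAAAC, read on the other strand as GTTTC, and no octamer.
Bcl6 chr16:24134873-24135072: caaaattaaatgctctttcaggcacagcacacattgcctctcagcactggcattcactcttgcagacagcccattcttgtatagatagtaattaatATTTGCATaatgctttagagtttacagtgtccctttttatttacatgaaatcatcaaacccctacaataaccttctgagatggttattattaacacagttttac
Ccdc175 chr12:73211622-73211821: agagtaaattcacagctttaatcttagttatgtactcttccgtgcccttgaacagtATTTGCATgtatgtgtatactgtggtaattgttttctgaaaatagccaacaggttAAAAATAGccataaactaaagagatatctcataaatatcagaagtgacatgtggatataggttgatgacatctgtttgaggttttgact
Tnfrsf8 chr4:144895727-144895926: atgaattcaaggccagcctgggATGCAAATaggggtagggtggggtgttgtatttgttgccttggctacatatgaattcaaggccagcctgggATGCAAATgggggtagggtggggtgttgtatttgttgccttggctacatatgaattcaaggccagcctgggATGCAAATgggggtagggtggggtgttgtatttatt
Cd86 chr16:36635431-36635630: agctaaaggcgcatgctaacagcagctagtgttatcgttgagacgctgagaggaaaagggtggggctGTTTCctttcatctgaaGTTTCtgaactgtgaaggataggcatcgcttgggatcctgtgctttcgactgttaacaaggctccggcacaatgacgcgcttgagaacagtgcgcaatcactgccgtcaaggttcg

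The next 3 show a second feature, regions built from short repeat units. Capitals mark the first unit, with a most common spacing of 32 bases at Gspt1, 43 bases at Cfap74 and 19 bases at Pxdc1. Copies can differ in letters and length, as a lengthened copy at Cfap74 does.
Gspt1 chr16:11249047-11249246: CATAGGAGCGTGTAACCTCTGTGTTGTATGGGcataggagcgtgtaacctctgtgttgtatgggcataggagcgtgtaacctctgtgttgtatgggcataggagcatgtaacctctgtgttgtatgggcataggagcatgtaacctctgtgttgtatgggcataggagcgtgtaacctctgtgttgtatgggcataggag
Cfap74 chr4:154823462-154823661: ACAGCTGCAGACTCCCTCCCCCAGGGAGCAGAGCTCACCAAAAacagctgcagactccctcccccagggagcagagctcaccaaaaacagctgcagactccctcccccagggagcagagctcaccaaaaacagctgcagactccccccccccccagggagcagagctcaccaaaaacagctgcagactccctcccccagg
Pxdc1 chr13:34628908-34629107: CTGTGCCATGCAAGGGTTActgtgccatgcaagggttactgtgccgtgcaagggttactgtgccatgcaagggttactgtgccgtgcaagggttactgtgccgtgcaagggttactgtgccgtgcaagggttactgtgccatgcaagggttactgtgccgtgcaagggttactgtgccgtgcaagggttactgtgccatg

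The sorted GCB libraries had a higher summed accessibility at promoters of germinal center B cell markers than the other libraries, though not at each gene. Summed over the promoter regions of the 9 of 10 germinal center B cell marker genes that had one, accessibility lay between 291.5 and 336.0 RPPM in the 6 GCB libraries, between 211.2 and 237.9 RPPM in nB and between 237.8 and 261.3 RPPM in BMPC. At Bcl6, a marker by transcript, the promoter was less open in GCB (20.01 RPPM in C) than in nB (53.8 RPPM in C), and at S1pr2 it was less open in GCB (26.2 RPPM in C and 23.9 RPPM in KO) than in BMPC (39.3 and 38.6 RPPM). The 12 naive B cell markers, 11 with a promoter region, summed to between 294.1 and 354.1 RPPM in GCB against 514.6 to 551.1 RPPM in nB. The 9 plasma cell markers, 7 with one, summed to between 204.9 and 258.6 RPPM in GCB against 349.5 to 397.0 RPPM in BMPC. Of 15 T cell markers 6 had a promoter region, and the defining genes Cd3e, Cd3d and Cd3g had none. The T cell sum was 116.8 to 147.6 RPPM in GCB and no higher than in nB (164.1 to 177.0 RPPM) or BMPC (180.5 to 189.4 RPPM), and its most open promoter in KO GCB was Gata3 (35.2 RPPM). For 15 myeloid markers, 7 with a promoter region, the GCB sum was 86.7 to 110.7 RPPM, led by Cebpb, against 94.3 to 114.2 RPPM in nB and 169.3 to 190.6 RPPM in BMPC. NK cell, erythroid and stromal markers had 3 of 6, 1 of 7 and 3 of 10 genes with a promoter region. Their sums reached at most 12.1, 18.4 and 35.6 RPPM in a GCB library. The NK cell sum, led in KO GCB by Klrb1c, was 6.597 to 12.1 RPPM in GCB, above nB (3.77 to 6.33 RPPM) in all 6 libraries and overlapping BMPC (4.48 to 10.4 RPPM). The stromal sum, led in KO GCB by Cdh5, was 35.6 and 32.8 RPPM in C GCB and 29.7, 29.9, 23.2 and 25.9 RPPM in KO GCB, so that 4 of the 6 libraries lay above all of nB (24.3 to 27.0 RPPM) and BMPC (19.3 to 27.3 RPPM). Cxcl13, Pdpn, Pdgfra and Col1a1 of that list had no promoter region. The erythroid list rested on Itga2b alone, at 12.6 to 18.4 RPPM in GCB, 10.4 to 13.5 RPPM in nB and 16.97 to 20.9 RPPM in BMPC. What part such cells have in the regions below was not tested, and in sorted pools a larger share of cells with an open region and a more open region per cell cannot be told apart.

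In the KO libraries the regions chosen in C were again open in GCB and close to the floor in nB and BMPC. The median over the 1691 regions was 12.0 RPPM in KO GCB (quartiles 7.47 and 19.7), 0.887 RPPM in KO nB and 0.803 RPPM in KO BMPC. For all distal regions these medians were 5.27, 3.73 and 3.96 RPPM. In C, where the rule fixed the order, they were 12.4, 0.995 and 0.798 RPPM. The regions took 2.74%, 2.91%, 2.85% and 2.91% of the reads of the 4 KO GCB libraries, against 0.261% and 0.283% in KO nB and 0.271% and 0.241% in KO BMPC. Every KO GCB library thus gave these regions more of its reads than any KO nB or KO BMPC library did.

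**Figure D1:**
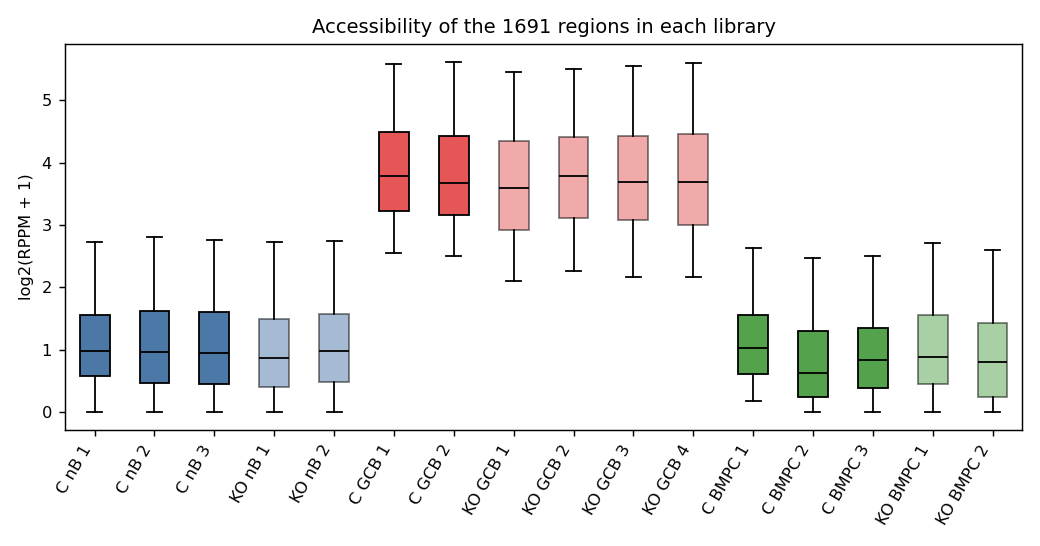
Accessibility of the 1691 regions as log2(RPPM + 1) on the vertical axis for each of the 16 libraries; boxes span the quartiles, lines mark medians and whiskers run from the 5th to the 95th percentile, with full colour for C and pale colour for KO. All 6 GCB boxes lie above the boxes of the other libraries, and the KO GCB boxes lie close to those of C GCB.

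In a limma fit of log2(RPPM + 1) to the 8 KO libraries and all 66177 regions, 1614 of the 1691 regions (95.4%) were more accessible in KO GCB than in KO nB, where a call needs an adjusted p of at most 0.01 and at least 2-fold. Over all regions that share was 15.6%, and over distal regions 17.4%. Against KO BMPC 1594 regions (94.3%) were more accessible, compared with 17.8% of all regions and 20.9% of distal ones. Both calls held for 1551 regions (91.7%), against 5.75% of all regions and 6.58% of distal regions, and no region was called less accessible in KO GCB. In 1647 regions (97.4%) all 4 KO GCB libraries lay above all 4 other KO libraries, which held for 14.1% of all regions. The median log2 fold change was 2.60 against KO nB, between 0.33 and 6.28, and 2.63 against KO BMPC, where all regions had medians of 0.12 and 0.03. Between KO BMPC and KO nB 107 of the 1691 regions were more accessible in BMPC and 127 less, that is 6.33% and 7.51%, compared with 15.6% and 14.8% of all regions. The rule kept both C nB and C BMPC low, so these low shares follow largely from the choice and are given only as a description.

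**Figure D2:**
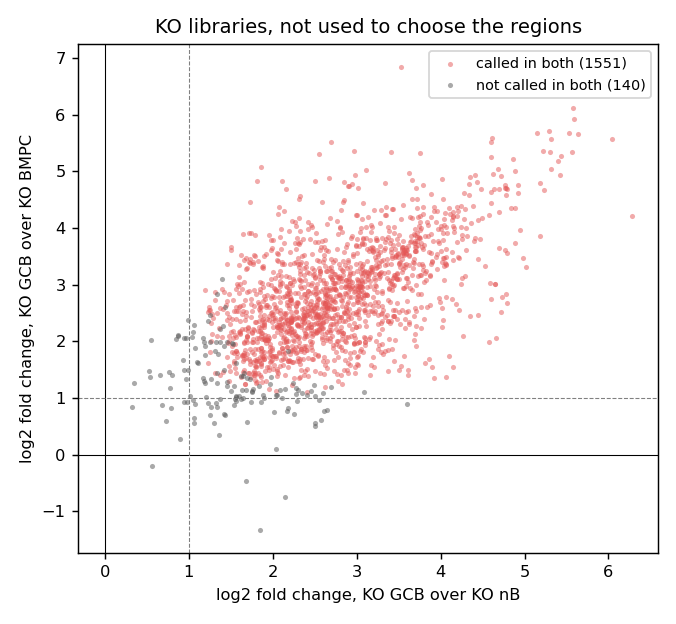
Each point is 1 of the 1691 regions, with the log2 fold change of KO GCB over KO nB on the horizontal axis and over KO BMPC on the vertical axis, both from limma on log2(RPPM + 1). The 1551 regions called in both are red, the other 140 are grey, dashed lines mark 2-fold, and 4 points lie below 0 on the vertical axis.

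Sex and tissue differ between the cell types, as do immunization, pooling of mice and depth. Values within each sex are given as a description, and the part of sex was not tested. In the male KO GCB pool 1686 regions (99.7%) were above both male KO nB libraries, compared with 48.65% of all regions. In the 3 female KO GCB pools 1663 regions (98.34%) were above both female KO BMPC libraries in every pool, compared with 34.45% of all regions. Lymph node and bone marrow cannot be told apart from cell type in the comparison with BMPC, whereas nB and GCB were both from lymph node. The nB mice were naive and the GCB mice immunized, which cannot be told apart from cell type either.

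The 140 regions without both calls were the weaker ones, with a median of 7.47 RPPM in C GCB and 5.31 RPPM in KO GCB. Among the 650 regions with 5 to 10 RPPM in C GCB, 81.8% were called in both KO comparisons. The share was 97.0% of 592 regions with 10 to 20 RPPM, 98.9% of 373 with 20 to 50 RPPM and 100% of the 76 above. The spread over the 4 KO GCB libraries fell along the same order, with a median coefficient of variation of 33.2% in the first group, 17.6% in the third and 13.2% in the fourth. The set is uneven, and its 100 most accessible regions held 23.4% of the summed C GCB accessibility.

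A group of 4 regions, picked after their values were seen, had log2 fold changes below 0 against KO BMPC, annotated to Serinc5, Ptprn2, Gab2 and E330033B04Rik. Their KO BMPC means were higher than those of C BMPC. The rule kept C BMPC low, and these regions were picked for KO BMPC above KO GCB. That difference therefore follows largely from the choice and is given only as a description. The Serinc5 region (chr13:93492333-93492883) had 14.7 and 16.1 RPPM in KO BMPC against 2.34, 2.55 and 2.02 RPPM in C BMPC, and averaged 6.88 RPPM in KO GCB. At Ptprn2 (chr12:117835417-117835951) the KO BMPC libraries had 8.75 and 9.15 RPPM and those of C BMPC 1.43, 1.82 and 1.71 RPPM. In both regions the KO and C BMPC values did not overlap. At E330033B04Rik (chr15:96027889-96028328) they did, with 4.01 and 1.87 RPPM in KO BMPC and 1.95, 0.365 and 0.623 RPPM in C BMPC. The choice of regions favours such gaps, and of the 4 limma called only the Gab2 region between KO and C BMPC.

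The same 5 RPPM and 4-fold limits applied to the KO means kept 1314 of the 1691 regions (77.7%). They took in 1773 distal regions in all, of which 74.1% belonged to the C set. The other 459 had a median of 5.90 RPPM in C GCB, and the 377 regions that dropped out had a median of 6.81 RPPM in KO GCB. Of the regions with 20 to 50 RPPM in C GCB 84.5% met the KO limits and of those above 85.5%, so strong regions also dropped out, such as those at S1pr2 and Ado (24.8 and 39.3 RPPM on average in KO GCB). At the limits themselves the C GCB mean was 5.01 RPPM for the last regions inside, at Spatc1 and Lbp, and 4.995 RPPM for the first outside, at Hace1 and Msi2. The last inside 4-fold were at Rap1gap2 and Ksr1 and the first outside at Syde2 and Itgav. Of the 3331 distal regions called in both KO comparisons 46.6% were in the C set, and 1780 were not. Of these 1780, 1400 missed only the 4-fold limit in C, 130 missed only the level and 250 missed both.

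The most accessible regions of the set were annotated to genes of varied function. The highest of all, on an unplaced stretch of chromosome 9 (chr9_random, bases 241983 to 243619), had 399 and 373 RPPM in C GCB and 650, 512, 382 and 522 RPPM in KO GCB. In KO nB it had 21.9 and 48.6 RPPM and in KO BMPC 23.0 and 24.5 RPPM, so it was far from closed there. A second such region, on chr8_random, bases 682174 to 683308, had 256, 171, 139 and 154 RPPM in KO GCB. The reference holds neither stretch, and their sequence was not analysed here.

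Among regions on assembled chromosomes, the one annotated to Mbip (chr12:57503729-57505043), a gene for an inhibitor that binds a MAP kinase kinase kinase, stood out for its contrast with plasma cells. It had 128, 153, 143 and 155 RPPM in KO GCB, 8.88 and 15.2 RPPM in KO nB and 0.364 and 0.187 RPPM in KO BMPC. The groups did not overlap, and the log2 fold change was 6.84 ± 0.20 (SE) against KO BMPC and 3.52 ± 0.20 against KO nB (limma, adjusted p = 2e-13 and 3.6e-10). The region annotated to Nap1l1 (chr10:110845775-110846982), a nucleosome assembly protein gene, had 107, 98.7, 106 and 112 RPPM in KO GCB against 2.14 and 0.984 RPPM in KO nB and 3.04 and 2.05 RPPM in KO BMPC. Both other cell types were far below GCB there, though above the floor of 3 reads.

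In an intron of Map2k6 (chr11:110300906-110302005), which encodes a kinase that activates p38, the KO GCB libraries had 77.1, 95.5, 113 and 90.9 RPPM and no other KO library had more than 1.97 RPPM. The intron of Bcl2l11 (chr2:127978290-127979716), the gene of the pro-apoptotic protein BIM, had 122, 95.5, 102 and 106 RPPM in KO GCB. Unlike Map2k6 it was clearly open elsewhere too, with 13.5 and 14.4 RPPM in KO nB and 23.1 and 23.5 RPPM in KO BMPC, and its log2 fold changes were 2.84 ± 0.14 and 2.14 ± 0.14 (SE). The Gxylt2 region (chr6:100756748-100757707), annotated to a xylosyltransferase gene, had 71.6, 90.4, 89.4 and 76.9 RPPM in KO GCB and at most 11.8 RPPM in the other KO libraries. For Gspt1, a translation termination factor gene whose sequence is shown above, the values were 117, 98.7, 148 and 152 RPPM in KO GCB, 19.4 and 18.1 RPPM in KO nB and 3.04 and 0.933 RPPM in KO BMPC. KO nB held clearly more than KO BMPC there, as at Mbip.

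Regions were also ranked in C by the GCB mean plus 1 RPPM over the larger of the nB and BMPC means plus 1 RPPM, a ratio that favours well covered regions. The top 10 were nearly closed outside GCB in KO too. The other 8 of these 10, besides Nap1l1 and Map2k6, were annotated to Lrrc1, Kcnt2, Eef2kmt, Rfx3, Pxdc1, Rgs6, Ccdc175 and Lsamp. Their KO GCB means ranged from 46.7 RPPM at Ccdc175 to 73.4 RPPM at Lrrc1, and each was called in both KO comparisons. At Pxdc1 (chr13:34628677-34629339) the KO GCB libraries had 58.4, 49.0, 68.8 and 57.3 RPPM and the 4 other KO libraries 0.165, 0.394, 0.121 and 0.187 RPPM.

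**Figure D3:**
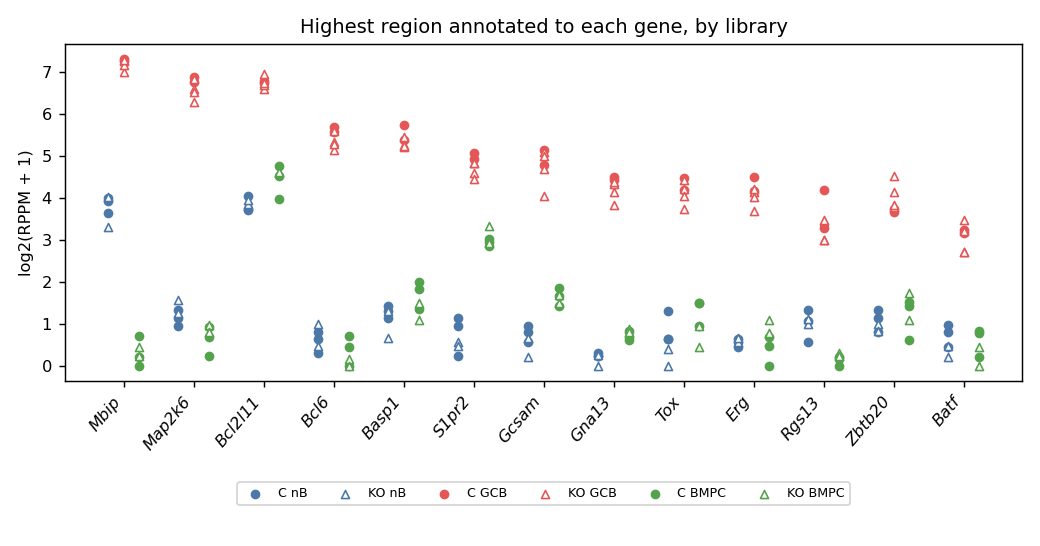
Accessibility as log2(RPPM + 1) on the vertical axis for the most accessible region annotated to each of 13 genes, with filled circles for C and open triangles for KO libraries; each symbol is 1 library. GCB symbols lie above all nB and BMPC symbols at each gene, with Bcl2l11 and, in BMPC, S1pr2 among the most open outside GCB.

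Genes of the germinal center program held several of these regions, with 3 each at Bcl6 and Basp1. Of 25 genes on this list with a distal region, 10 had at least 1 region of the set, 20 regions in all, and 19 of the 20 were called in both KO comparisons. These 20 were 7.30% of the 274 distal regions of the list, whereas 3.35% of distal regions of all named genes were in the set. By the KO comparisons alone 12.0% of the distal regions of the list and 6.49% of those of all named genes were called. These shares describe a list that was chosen with earlier results known.

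For Bcl6 there were 3 regions, of which the most accessible lay 145608 bp from its start (chr16:24134546-24135399), the one whose octamer is shown above. It had 34.1, 39.5, 38.1 and 47.5 RPPM in KO GCB, 0.987 and 0.394 RPPM in KO nB and 0.121 and 0 RPPM in KO BMPC. The log2 fold changes were 4.61 ± 0.28 and 5.26 ± 0.28 (SE, limma, adjusted p = 8.2e-10 and 8e-11). Unlike the promoter of the same gene, this region was open in GCB and at or near the floor in the other cell types.

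At S1pr2, the sphingosine phosphate receptor that keeps B cells in the follicle (chr9:20784330-20784768), the KO GCB libraries had 23.1, 21.0, 27.6 and 27.3 RPPM, and the gene had 2 such regions. KO nB had 0.494 and 0.394 RPPM, but KO BMPC had 6.56 and 9.15 RPPM, and the log2 fold change was 4.15 ± 0.25 against KO nB and only 1.55 ± 0.25 against KO BMPC (SE). Gna13 encodes the G protein subunit that S1PR2 couples to. Its region (chr11:109267146-109267442) had 13.2, 19.1, 19.7 and 16.8 RPPM in KO GCB and no more than 0.850 RPPM in the other KO libraries.

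In the region of Rgs13, a regulator of G protein signaling (chr1:146016149-146016347), KO GCB had 9.91, 10.2, 7.01 and 6.99 RPPM against at most 1.18 RPPM elsewhere in KO. The second region of this gene averaged 3.52 RPPM in KO GCB. Gcsam, a germinal center protein of signaling and motility, had 15.4, 33.1, 24.99 and 30.8 RPPM at chr16:45623424-45624011, the shallowest library being the lowest. The region of Cxcr4, the chemokine receptor of the dark zone (chr1:130474123-130474304), had 7.71, 4.46, 7.89 and 6.29 RPPM in KO GCB and at most 0.373 RPPM in other KO libraries. Basp1 had 3 regions, Tox 2 and Bcl11a 1, and their most accessible ones averaged 38.3, 16.4 and 8.14 RPPM in KO GCB and were called in both comparisons.

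Transcription factor genes of B cells held a smaller share of these regions. Of 59 such genes with a distal region 10 had a region of the set, 13 regions, which is 1.38% of the 939 distal regions of the list, beside 3.35% for all named genes. Of the 13, 10 were called in both KO comparisons. Erg, an ETS factor gene, had 16.5, 15.3, 11.8 and 17.5 RPPM in KO GCB at chr16:95853348-95853858 and no more than 1.12 RPPM in other KO libraries. A second Erg region (chr16:95833669-95833879) averaged 6.85 RPPM in C GCB and 2.54 RPPM in KO GCB. It was called against KO nB and not against KO BMPC (log2 fold change 1.03, limma, adjusted p = 0.048). Pou2f1, the gene of Oct-1, had 8.81, 15.3, 10.1 and 19.6 RPPM in KO GCB at chr1:167890215-167890756, above KO nB (0.823 and 0.984 RPPM) and KO BMPC (3.40 and 2.43 RPPM). Zbtb20, Tcf4 (an E protein), Id3 (an inhibitor of E proteins), Mef2c, Batf and Myc each had a called region, with KO GCB means of 16.2, 15.0, 9.86, 14.6, 7.36 and 7.70 RPPM for the most accessible one.

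Mef2c and Myc were called by a narrow margin. With a pseudocount of 5 RPPM the log2 fold changes of Myc were 0.76 against KO nB and 0.82 against KO BMPC, with quantile normalization 0.92 and 1.15, and both calls were lost. Without KO nB library 2 Mef2c lost the call against KO nB (log2 fold change 1.18), and without KO BMPC library 2 that against KO BMPC (1.24). Myc lost a call with any 1 of these 4 libraries left out, at folds of 1.42 and 1.22 against KO nB and 1.30 and 1.58 against KO BMPC, about as large as with all libraries. Each such fit leaves 1 library in a group, which is assumed to vary like the other groups. Batf3, of the AP-1 family, was called against KO nB (log2 fold change 2.30 ± 0.36) and not against KO BMPC (1.13 ± 0.36, SE, limma, adjusted p = 0.014), where both edgeR tests called it (1.43). Bhlhe40, a repressor gene, had 4.41, 1.27, 2.63 and 4.19 RPPM in KO GCB against 5.28 and 7.49 RPPM in C GCB, and was called in neither comparison by limma (adjusted p = 0.22 against KO nB and 0.011 against KO BMPC). Both edgeR tests called it against KO BMPC (log2 fold change 2.26). So did limma with other libraries in the fit (1.40) and without KO GCB library 2 (1.66). Batf3 was likewise called against KO BMPC by limma with other libraries in the fit (1.13) and without KO GCB library 1 (1.30).

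Costimulation and cytokine receptor genes added 8 regions, all called in both KO comparisons, at Cd86, Tnfrsf8, Il6ra and Tgfbr1. Il6ra and Tgfbr1 encode receptors for interleukin 6 and for TGF-beta. Cd86, a ligand of CD28, had 4 of them, with KO GCB means of 75.2, 18.8, 59.0 and 16.1 RPPM. The most accessible (chr16:36634971-36636091) was not closed in KO nB, where it averaged 24.7 RPPM. Tnfrsf8, the gene of CD30, had 2 regions, at 56.3 ± 6.04 and 8.12 ± 1.25 RPPM (SD, n = 4) in KO GCB, the first being the one with 3 octamers. Among migration and adhesion genes Itgb1 (integrin beta 1) and Rgs1 had 3 regions each and Rgs2 had 1, and all 7 were called.

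The other lists held fewer. Mutation and repair genes had 2 regions, at Msh6 (mismatch repair) and Xrcc4 (end joining), and chromatin regulators 2, at Ezh2 and Satb1. Cell cycle genes had 1, at Ccnd3 (cyclin D3), and survival genes 4, at Bcl2l11, Bcl2l1 and Akt1. All 9 of these were called in both KO comparisons. The shares of the lists' distal regions that belonged to the set were 2.94%, 1.45%, 1.27% and 2.65%, and those of the costimulation and migration lists 4.06% and 3.83%. By the KO comparisons alone 13.2% of the distal regions of the mutation and repair list were called, 5.06% of the cell cycle list, 2.90% of the chromatin list, 5.30% of the survival list, 5.58% of the costimulation list, 7.65% of the migration list and 2.77% of the transcription factor list, beside 6.49% for all named genes.

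Some loci held many. The 1533 regions with a gene name were annotated to 1154 genes, of which 260 had 2 or more and 10 had 5 or more. Rybp, a subunit of Polycomb complexes, had 7 of its 14 distal regions in the set, 6 of them called in both KO comparisons. Gxylt2 had 6 of 6, and within 100000 bp around Gxylt2 and Ppp4r2 all 8 distal regions belonged to the set. Daam1 had 6, and Rgs6, Vps8, Lsamp, Mtf2 (a Polycomb accessory protein), Hdac4 (a histone deacetylase), Atp10b and Ehf had 5 each. Regions of 1 gene share their chromatin and are not independent of each other.

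By position the set lay somewhat farther from transcription starts than all distal regions, and less far than the regions open only in nB. Introns held 53.2% of the 1691 regions and of all distal regions, and 43.0% against 42.1% lay outside transcripts. The median distance to a transcription start was 23801 bp against 17744 bp for all distal regions, 12.1% against 7.81% lay beyond 100000 bp, and 24.2% against 32.5% lay within 10000 bp. The mirrored sets, chosen by the same limits for the other cell types, had a median distance of 29915 bp for regions open only in nB and 16609 bp for those open only in BMPC, with 15.99% and 5.23% beyond 100000 bp. Median width was 410 bp against 467 bp. The median GC content was 47.4% against 47.3%, and the median number of CpG per 100 bases 1.23 against 1.22. Among assembled chromosomes the share of distal regions in the set ran from 1.29% on chr19 to 4.51% on chr6. On unplaced sequence it was higher in places, with 10 of 30 regions on chr8_random.

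The octamer was more common in these regions than in the other groups of distal regions. ATGCAAAT, searched on both strands, was found in 265 of the 1669 regions with sequence (15.9%), and in 6.34% of all distal regions. The same rule mirrored for regions open only in nB (982) or only in BMPC (1856) gave 4.18% and 7.81%. In the central 200 bases, which take out the width of the region, the shares were 11.3%, 3.51%, 2.38% and 3.31%. The 1529 regions with sequence called in both KO comparisons held it in 16.5%, and the 140 regions not called in both in 8.57%. Distal regions called in both KO comparisons but outside the set, chosen by KO values, had 10.7%, and those neither in the set nor called had 5.84%.

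Matches to the octamer gathered at the centre. In the 50 bases on either side of the centre 3.59% and 3.77% of the regions had a match, while the 10 bins beyond 250 bases on either side held between 0.240% and 0.599%. All distal regions also peaked there, with 1.03% and 0.990% at the centre and between 0.230% and 0.351% in the outer bins. The median region of the set was 410 bp wide, so the outer bins lie outside most regions. Regions with an octamer in the central 200 bases had a median of 13.5 RPPM in KO GCB, and those without 12.5 RPPM, so the presence of these letters went with little difference in level inside the set.

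**Figure D4:**
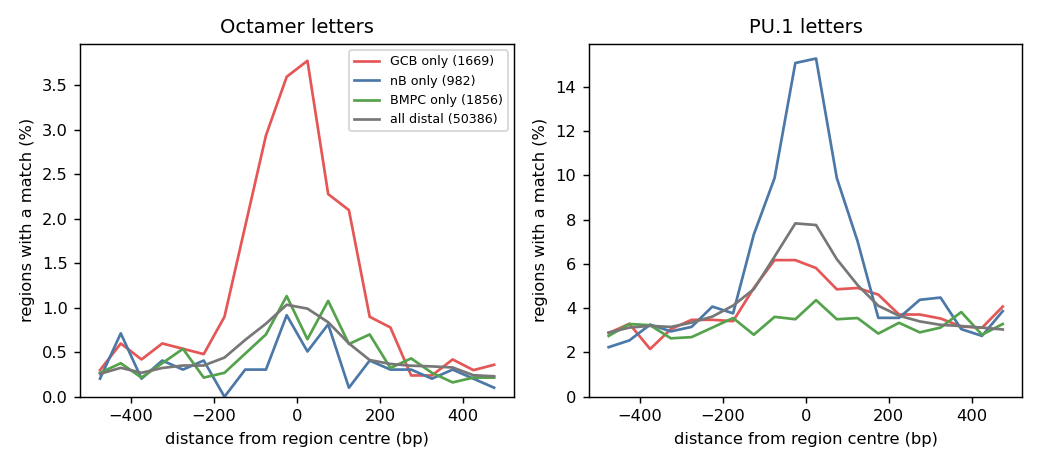
Share of regions with a match, in percent, in bins of 50 bases by distance from the region centre in bp, for the octamer letters (left) and the PU.1 letters (right) in regions open only in GCB, only in nB, only in BMPC and in all distal regions with sequence. The octamer peaks in the GCB regions at 3.77% and the PU.1 letters in the nB regions, and the vertical scales of the panels differ.

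Several other motifs were less common in the set than in all distal regions, and EBF1 and AP-1 letters were more common. GGAAGT, the letters of the ETS factor PU.1, was in 19.8% of the central 200 bases, against 24.4% of all distal regions, 41.5% of nB regions and 13.8% of BMPC regions. GAAAC, bound by IRF4, was in 35.7%, 47.1%, 48.6% and 65.2% of them in the same order. CTCF letters (CACNAGNGG) were in 3.11% against 7.17% of all distal regions, 2.58% of nB regions and 2.33% of BMPC regions, and RUNX letters (TGTGGTT) in 5.58% against 8.19%. NF-kB letters (GGNNTTTCC) were in 2.54% against 5.05% of all distal regions, 5.17% of nB regions and 7.70% of BMPC regions. The PU.1-IRF composite (GAANTGAAA) was in 3.05% against 5.30% of all distal regions. MEF2 letters (CTATTTTT) were in 1.46% against 1.82%, and BCL6 letters (TTCCNGGAA) in 0.317% against 0.692%. The letters CCCNNGGGA of EBF1, a factor of B cell identity, were in 7.42% against 4.03% of all distal regions, 2.79% of nB regions and 2.66% of BMPC regions. The letters TGANTCA of AP-1 and BATF were in 9.33%, against 7.15%, 6.51% and 8.13% in the same order. Outside the set, the central EBF1 share was 5.26% for distal regions called in both KO comparisons and 6.84% for those meeting the limits in KO only. Over whole regions the EBF1 letters were in 11.6% of the set and 11.98% of the regions called in both outside it. CAGCTG, read by E2A, was in 16.3% against 15.98%. Both strands were searched, CAGCTG reads the same on both, and bases of 1 match can belong to another motif. Such a match is not a measured binding site.

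A part of the set was made of tandem repeats. A region was counted as repeated when at least 20% of its 12-letter words occurred more than once in it, a limit chosen after the data were seen. This held for 138 of 1669 regions (8.27%), for 1.66% of all distal regions, for 5 of 982 regions open only in nB (0.509%) and for 9 of 1856 open only in BMPC (0.485%). At a limit of 50% the shares were 5.33%, 0.808%, 0% and 0.0539%. Distal regions called in both KO comparisons outside the set had 6.10% at the 20% limit and 3.26% at the 50% limit. At a limit of 10% they had 9.65%, beside 9.59% of the set and 3.56% of all distal regions. The unit spacing had a median of 31.5 bases, with quartiles of 24 and 45.75.

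The repeat regions were called in KO GCB about as often as the others, with 126 of 138 (91.3%) called in both KO comparisons against 1403 of 1531 (91.6%). They had a median of 14.4 RPPM in KO GCB against 11.9 RPPM, a median of 0.407 CpG per 100 bases against 1.26, and a GC content of 50.9% against 47.1%. Of the 10 most accessible regions 3 were repeats, at Gspt1, at Cfap74 and at an unnamed site (chr1:72280195-72280973) with a spacing of 8 bases. These 10 include the regions on chr9_random and chr8_random, which had no sequence and were not examined for repeats. At Cfap74 (chr4:154823215-154823909) the KO GCB libraries had 101, 94.2, 89.4 and 79.7 RPPM and the other KO libraries 0, 0.394, 2.55 and 5.97 RPPM. Reads that map to several places can be placed unevenly in such sequence, and the part of read placement was not tested. Without the repeat regions the octamer share was 16.9%, against 6.42% of all distal regions.

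**Figure D5:**
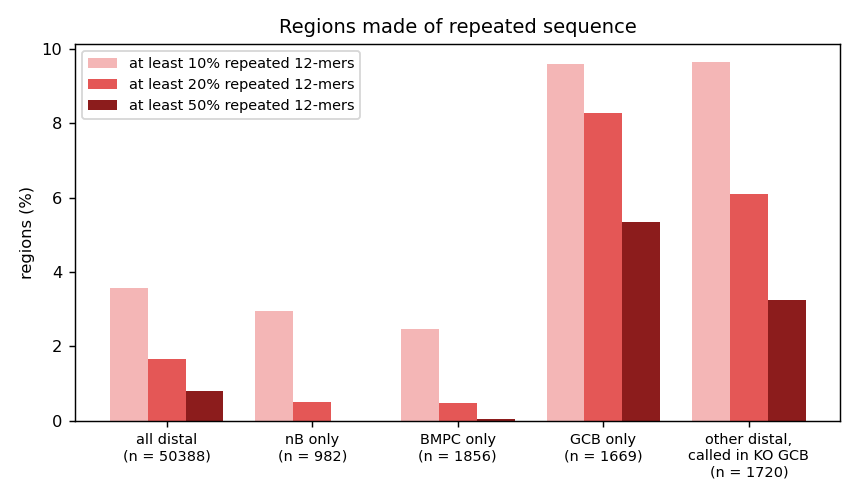
Share of regions, in percent, in which at least 10%, 20% or 50% of 12-letter words recur within the region, for 5 groups of distal regions with sequence, with the number of regions under each. At the 20% limit the regions open only in GCB reach 8.27% and those open only in nB or BMPC 0.509% and 0.485%.

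Between genotypes these regions showed few calls, in comparisons that use the C libraries that chose them and so are given as a description. In GCB 0 of the 1691 regions were called between KO and C with limma, with edgeR's quasi-likelihood and likelihood ratio tests and with DESeq2, while 105 (6.21%, beside 11.8% of all regions) had an unadjusted p under 0.05. Over all regions limma called 0.0317%, 21 of 66177, all more accessible in KO. That count depended on the test, with 0.00151% by edgeR's quasi-likelihood test, 0.0181% by its likelihood ratio test (11 more and 1 less accessible) and 0% by DESeq2. The median ratio of KO to C GCB means was 0.927, with 10th and 90th percentiles of 0.664 and 1.27. In nB limma called 0 regions (0% of all regions), with 55 (3.25%, beside 1.67% of all regions) under an unadjusted p of 0.05, and the other 3 tests also called 0, beside 0.0106%, 0.0151% and 0.00151% of all regions. No region was called for a difference in genotype effect between GCB and nB or BMPC (interaction, limma, 0 of all regions called), with 71 and 114 of the set (4.199% and 6.74%, beside 6.21% and 8.32% of all regions) under an unadjusted p of 0.05.

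In BMPC limma called 2 regions, 1 more and 1 less accessible in KO, against 0.104% of all regions (0.0907% more and 0.0136% less accessible). The region in Gab2 (chr7:104372165-104372759), which encodes a signaling adaptor, had 1.17, 0.547 and 1.40 RPPM in C BMPC and 7.41 and 12.7 RPPM in KO BMPC. The region nearest Ado (chr10:67165416-67166131) had 10.9, 11.5 and 13.5 RPPM in C BMPC and 5.22 and 3.73 RPPM in KO BMPC. In GCB the Gab2 region had 11.0 and 4.22 RPPM in C and 4.41, 8.27, 8.77 and 6.29 RPPM in KO, so the genotypes overlapped there. The count depended on the test, with 25 regions by edgeR's quasi-likelihood test (19 more and 6 less accessible in KO), 29 by its likelihood ratio test (22 and 7) and 14 by DESeq2 (10 and 4), whose shares over all regions were 1.81%, 2.53% and 0.746%. Limma lost both calls, with a count of 0, under quantile normalization, with no trend or without C BMPC library 2, among other settings. The calls rest on only 2 KO BMPC libraries. A fit without either of them leaves 1 library in that group, so the calls were not shown to hold without it.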

How the data were processed

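ATAC-seq libraries of nB, GCB and BMPC were put in 6 groups, 1 for each cell type and genotype that the labels name. The authors called peaks per sample with MACS2 at a q of 0.01, merged them on mm9, and deposited the reads of every region, scaled to 1000000 reads in regions of that library (RPM, called RPPM). The submitters' processing notes name Bowtie 1.1.1, Picard 1.127, MACS2 2.1.0.20140616 and edgeR 3.12.1, while the methods name another Bowtie version. The authors removed 1 KO BMPC library with a share of reads in peaks outside 5 to 25%, and it was not analysed here. The 54 columns of the authors' own 9 comparisons were not used.

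Every value was a whole multiple of 1 read (100%, tolerance 0.001), which gave the depth. Limma 3.58.1 in R 4.3.3 was fitted to log2(RPPM + 1) over all 66177 regions, with a mean-variance trend and p-values adjusted by Benjamini-Hochberg, so that fold changes of low regions are understated. The 8 KO libraries were fitted alone for cell types, and all 16 for genotype. Calls needed both an adjusted p no higher than 0.01 and a log2 fold change of 1 or more in size. Nothing in the labels says more about how separate the nB or BMPC libraries were than their mouse names, and p-values measure the spread between these libraries. The test was run on simulated data first. Alternatives were pseudocounts of 0.1 and 5 RPPM, a filter at a mean of 1 RPPM, TMM scaling, quantile normalization, other libraries in the fit, no trend, a limit of 0.05 on the adjusted p, each library left out, a replicate block, edgeR 4.0.16 and DESeq2 1.42.0 on recovered reads.

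Sequence was read from NCBIM37 with pysam 0.24.0 for the 1669 regions on named chromosomes. All 65893 regions there lay within chromosome ends. The 22 regions on unplaced sequence have none. The 14 motifs were counted by exact letters. The members, the gene and marker lists and the motifs were chosen with earlier results of these data known. Regions were named by C values, as the 10 highest, the 10 with the highest ratio to the other C cell types, the top region of the 10 genes with most members, the top region of each listed germinal center and transcription factor gene, regions called between genotypes and those nearest each limit. Values of the other lists, Serinc5, Ptprn2 and E330033B04Rik were added to these. Some items that the naming rule would list are not reported here.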

Additional observations from a re-analysis of the deposited data

Results flagged for a closer look

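One value stood apart from its group. In the Tcf4 region (chr18:69635370-69635790) the male KO GCB pool M1 had 22.4 RPPM, while the 3 female pools had 12.1, 13.4 and 12.3 RPPM. The gap to the nearest library was 0.878 of the range of the 4 libraries, above the 95% limit of Dixon's test for 4 values. Chance gives such a value in about 1 of 20 groups, and this was 1 of 53 groups examined. What part the sex of the pool has in it was not tested.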

How the results depend on the processing

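The counts of regions more accessible in KO GCB kept within 1.5 times under every alternative run. For both comparisons together the count lay between 1252 with a pseudocount of 5 RPPM and 1643 with edgeR's likelihood ratio test, and with 1 library left out between 1313 and 1580 (1349 to 1635 against KO nB and 1358 to 1612 against KO BMPC). Counts between KO and C BMPC moved most, from 2 to 4 with a pseudocount of 0.1 RPPM or TMM scaling, to 0 with quantile normalization or no trend, to 5 with only the compared groups in the fit, to 11 at an adjusted p of at most 0.05, to 14 with DESeq2, 25 with edgeR's quasi-likelihood test and 29 with its likelihood ratio test, and between 0 and 6 with 1 library left out. The cause was not tested. In GCB the count was 0 under all of these and between 0 and 1 with 1 library left out, the 1 coming without C GCB library 1, and in nB it was 0 in each. Pools called F2 and M1 exist for C and for KO GCB but hold different mice. Deviations of same-named pools correlated by 0.0291 and 0.0388 over regions, against -0.0388 to 0.0332 for other pairs. With 2 C pools, their deviations are equal and opposite, so each value recurs with its sign reversed. The correlations therefore cannot show whether same-named pools share more than a name. With the pool name as a replicate block 0 of the regions were called. The number of regions in the set was 2293 at 3-fold, 873 at 8-fold, 1041 at 10 RPPM and 1064 when every C library had to meet the limits, and between 1628 and 1820 with 1 C library left out of the rule. Of the values at named regions 1940 kept their call, 24 lost and 12 gained one, and 0 turned direction. Depth limits the weakest regions, since 3 reads equal 3.30 RPPM in the shallowest GCB library and regions enter the set at 5 RPPM.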

Other observations

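The same levels were met by 26 of 1190 distal regions of chrX (2.18%), by 0 of 5 distal regions of chrY and by 161 of 13880 promoter regions (1.16%), compared with 3.34% of the distal regions described above. Limma called 21 regions between KO and C GCB over the whole table, of which 7 lay on chr7 and none belonged to the distal regions open only in GCB. Other tests called fewer, 1 by edgeR's quasi-likelihood test, 11 more and 1 less accessible by its likelihood ratio test and 0 by DESeq2, so the tally by chromosome rests on limma alone.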
